A study of Homo sapiens with 6 samples.

Results

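The genes that decide whether a cell leaves G1 were measured in azacitidine-resistant and azacitidine-sensitive K562, a human line from a patient with chronic myeloid leukaemia. The set comprises 10 genes: the D cyclins CCND1, CCND2 and CCND3, the kinases CDK4 and CDK6, the inhibitors CDKN1A, CDKN1B, CDKN2C and CDKN2D, and the retinoblastoma gene RB1. All 10 were found among the 61487 gene IDs of the count table, and all 10 were among the 20891 genes with enough counts to be tested. They were selected on their known roles and, since earlier results were at hand, on their counts in this same comparison, so their differences between the groups are given as a description and support no test.

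The resistant group was K562 kept for months under rising concentrations of azacitidine, a cytidine analogue that traps DNA methyltransferases. The sensitive group was K562 that responds to the drug. Both grew in RPMI with serum and both carry the background of the line. The names of all 6 libraries end in NT, a code that the names do not spell out, and the labels state no treatment at harvest. Each group had 3 libraries of total RNA depleted of ribosomal RNA. Whether these replicates came from separate cultures, or from more than 1 resistant population, is not stated in the labels, and the p-values cover only the spread seen among the 6 libraries. In bulk RNA, fewer cells with a transcript and less of it per cell cannot be told apart.

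D cyclins are made in response to growth signals, bind CDK4 or CDK6 and form the kinases that begin the phosphorylation of RB1. Phosphorylated RB1 releases E2F factors, which switch on genes for DNA replication and for the later cyclins. Proteins of the INK4 family, here CDKN2C (p18) and CDKN2D (p19), bind CDK4 and CDK6 themselves, while CDKN1A (p21) and CDKN1B (p27) bind cyclin-kinase complexes and block CDK2. K562 is known to lack the locus of the INK4 genes CDKN2A and CDKN2B.

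Total counts were between 33007642 and 37991708 in the resistant libraries and between 34924828 and 43006918 in the sensitive ones. The first principal component, with 66.3% of the variance, separated the groups, and the second, with 17.96%, set the libraries numbered 3 of both groups apart from the others. Results are therefore also given without both of those libraries. Mitochondrial ribosomal RNA made up 8.54% of resistant replicate 3, against 17.8% and 16.8% of resistant replicates 1 and 2. In the sensitive libraries it made up between 12.8% and 16.2%, and its part in the results was not tested. The erythroid markers of K562 summed to between 906 and 1537 CPM (the count scaled by the total of its library) in resistant libraries. In sensitive libraries they summed to between 713 and 1628 CPM. Of these sums, TFRC alone held between 591 and 954 CPM in resistant and between 325 and 1200 CPM in sensitive libraries. HBE1 was near 0 and not tested, and 0 of the 8 tested markers were called in either direction. The labels also name the cell type myeloblast. The 6 myeloblast markers summed to between 13.9 and 18.7 CPM in resistant and between 219 and 251 CPM in sensitive libraries, CD33 and KIT among them were lower, and MPO, CD34 and ELANE were near 0 in both groups. Lymphoid markers summed to between 8.30 and 9.33 CPM in resistant and between 6.04 and 8.09 CPM in sensitive libraries, with CD3E called lower (−4.45). Stromal or epithelial markers, mostly EPCAM, summed to between 97.3 and 127 CPM in resistant and between 114 and 132 CPM in sensitive libraries, with COL1A2 called higher (4.11). BCR and ABL1, the genes joined in this leukaemia, were both higher and summed to between 377 and 557 CPM in resistant and between 231 and 301 CPM in sensitive libraries. The part of these markers in the results was not tested.

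The promoter windows of the inhibitors show what sequence these genes start from. RefSeq windows on GRCh38.p14 were matched for 8 of the 10 genes, 13 windows in all. No window was matched for CCND1 or CCND2, so the motif search and CpG counts do not cover them. Each was searched on both strands for the E2F-like letters TTCGCGC and for its variants, which were TTGGCGC and also TTCCCGC and, as the last of them, TTGCCGC. At least 1 of these is held by 13% of 35116 windows of the same length. The match is to letters only. Capitals mark the matches, which were found in 1 of the 13 windows, the second start of CDKN2C, with TTCCCGC once on each strand. CDKN1A and CDKN2D are shown beside it as the inhibitors with the largest differences. Each line gives the 250 bases before a start, on the strand of the gene, at chr1:50968456-50968705 for CDKN2C, chr6:36678464-36678713 for CDKN1A (both forward strand) and chr19:10568980-10569229 for CDKN2D (reverse strand).
CDKN2C: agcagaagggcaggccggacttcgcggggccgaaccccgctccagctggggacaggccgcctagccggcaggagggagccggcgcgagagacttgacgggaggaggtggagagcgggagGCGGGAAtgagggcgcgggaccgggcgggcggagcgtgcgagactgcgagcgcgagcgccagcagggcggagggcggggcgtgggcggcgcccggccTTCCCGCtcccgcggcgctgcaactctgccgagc
CDKN1A: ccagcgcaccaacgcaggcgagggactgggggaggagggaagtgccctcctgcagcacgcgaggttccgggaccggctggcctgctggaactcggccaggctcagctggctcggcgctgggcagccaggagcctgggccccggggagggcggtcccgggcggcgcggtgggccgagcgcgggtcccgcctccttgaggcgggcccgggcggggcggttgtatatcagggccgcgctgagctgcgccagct
CDKN2D: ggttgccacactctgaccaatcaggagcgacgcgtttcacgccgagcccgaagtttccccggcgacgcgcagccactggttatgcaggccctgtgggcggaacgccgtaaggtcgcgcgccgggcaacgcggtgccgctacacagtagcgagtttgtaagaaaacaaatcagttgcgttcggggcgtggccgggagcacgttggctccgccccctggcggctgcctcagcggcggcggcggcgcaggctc
TTCCCGC alone is in 6.55% of all windows. The sequences shown are dense in CpG, the dinucleotide that DNA methyltransferases modify. Over 300 bases, the second window of CDKN2C held 37 CpG, that of CDKN2D 36 and that of CDKN1A 29, where the median of all windows was 14. The other windows of CDKN2C held 8 and 11, and those of CCND3 held 29, 37 and 3. CDKN1B had 29, CDK4 23 and the windows of CDK6 37 and 29, whereas the 1 window matched for RB1, a start inside the gene, had 0.

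Of the 10 genes, CCND1 alone met the rule used for all genes, an edgeR quasi-likelihood test with a Benjamini-Hochberg adjusted p below 0.05. It was lower in resistant cells, 0 genes of the set were higher and 9 were not called. The same rule called 23% of all tested genes, 9.83% higher and 13.1% lower. The median log2 fold change of the 10 genes was −0.16, against 0.03 over all genes tested. The resistant and sensitive libraries did not overlap for 3 of the 10, with all resistant libraries below for CCND1 and above for CDK6 and RB1. Over all tested genes the groups did not overlap for 40.1%, 18.7% with the resistant libraries above and 21.4% below. Without both libraries numbered 3, CCND1, CDKN1A and CDKN2D met the rule as lower. That fit called many more genes in all, 5021 of 21908 tested genes lower and 4645 higher. Higher genes made up 42.8% of all calls, and 58.9% when libraries were scaled by their totals alone. That scaling put the median over all genes at 0.20, and CDK6 then met the rule as higher. Leaving out sensitive replicate 3 alone gave 2 lower genes, CCND1 and CDKN1A, where 2724 of 22262 tested genes were lower.

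**Figure D1:**
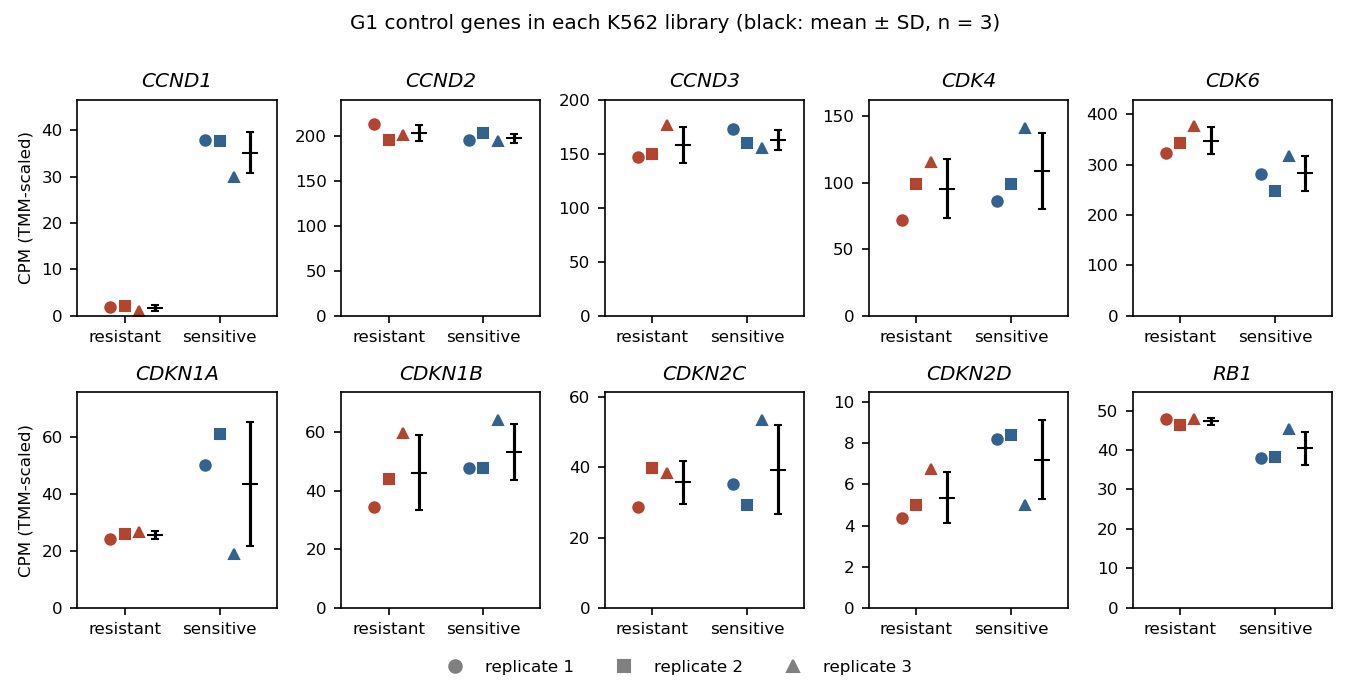
TMM-scaled CPM of the 10 genes (vertical axis, starting at 0 in each panel) in resistant libraries (red, left) and sensitive libraries (blue, right). Symbols are replicates 1, 2 and 3, black bars the mean ± SD of 3 libraries. CCND1 lies between 0.970 and 2.09 CPM in resistant and between 30.0 and 37.8 CPM in sensitive libraries, and the single low sensitive value of CDKN1A, 19.1 CPM, is replicate 3.

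Of the 3 D cyclin genes, CCND1 met the rule and CCND2 and CCND3 did not. CCND1 (ENSG00000110092, chr11:69641087-69654474, forward strand) encodes cyclin D1, the D cyclin most often amplified or translocated in cancer. It measured 1.94, 2.09 and 0.970 CPM in resistant libraries, from 70, 83 and 37 counts, against 37.8, 37.7 and 30.0 CPM in sensitive libraries, from 1548, 1254 and 1120 counts. Every resistant library lay far below every sensitive one, and the spread within either group was small beside the gap. The means were 1.67 ± 0.606 CPM in resistant and 35.2 ± 4.48 CPM in sensitive cells (SD, n = 3 each), a log2 fold change of −4.40 ± 0.29 (SE, 95% interval −5.04 to −3.76) or 21.1-fold lower. It ranked 100 of all tested genes by p. It met the rule in 17 of 17 alternative analyses, with log2 fold changes between −4.60 (without resistant replicate 2) and −4.14 (without resistant replicate 3).

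CCND2 (ENSG00000118971, chr12:4273772-4305350, forward strand) encodes cyclin D2, a D cyclin of blood cells. It measured 213, 195 and 201 CPM in resistant and 195, 203 and 194 CPM in sensitive libraries. The groups overlapped and the 6 values lay close together. The log2 fold change was 0.04 ± 0.15 (SE), with a 95% interval from −0.29 to 0.37, so a change beyond 1.29-fold upward lay outside it.

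CCND3 (ENSG00000112576, chr6:41934933-42050357, reverse strand) encodes cyclin D3, which acts in lymphoid and erythroid cells. It measured 147, 150 and 177 CPM in resistant and 173, 161 and 156 CPM in sensitive libraries. Resistant replicate 3 was the highest of all 6 and the groups overlapped. Its log2 fold change was −0.04 ± 0.15 (SE), with a 95% interval from −0.39 to 0.30. Its sign depended on the scaling, with 0.03 under upper quartile factors and 0.12 under library totals.

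CCND1 was a small share of D cyclin RNA in both groups. To compare genes, CPM was divided by the length of the longest coding transcript in kilobases. On this scale CCND1 had 0.387 ± 0.141 CPM per kilobase in resistant and 8.17 ± 1.04 in sensitive cells, and 0.403 ± 0.165% and 7.63 ± 0.709% of the D cyclin sum (SD, n = 3 each). CCND3 made up 67.5 ± 2.76% in resistant and 63.9 ± 1.24% in sensitive cells, and CCND2 32.1 ± 2.62% and 28.5 ± 1.30%. The sum of the 3 genes was 97.8 ± 6.51 CPM per kilobase in resistant and 107 ± 4.63 in sensitive cells. Resistant replicate 3, at 105, lay above sensitive replicate 3, at 102, so the sums overlapped. They did not overlap under the other 2 lengths, where all resistant sums lay below all sensitive ones, the closest being 435.17 and 435.20 CPM per kilobase of coding length in resistant and sensitive replicate 3. With coding length alone, CCND2 was the larger share, at 56.2% in resistant and 50.1% in sensitive cells, so the order of CCND2 and CCND3 depends on the length used, while CCND1 was the smallest share under each of the 3 lengths tried.

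**Figure D2:**
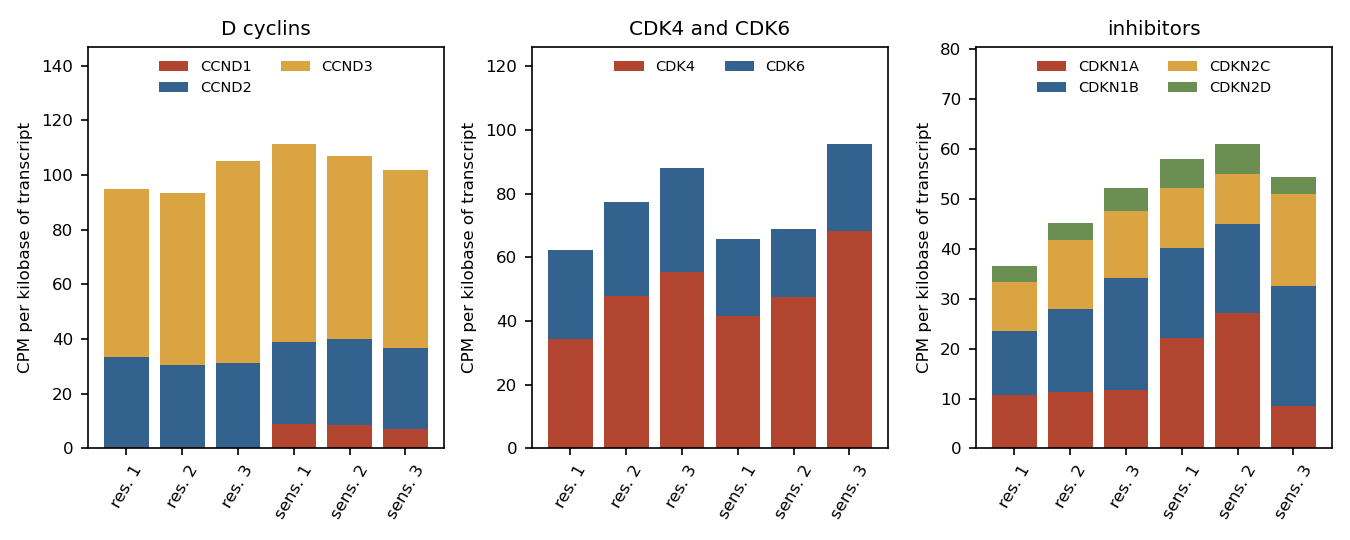
Stacked CPM per kilobase of transcript (vertical axis, from 0) for the D cyclins, the kinases and the inhibitors in each library, resistant replicates on the left and sensitive replicates on the right of each panel. CCND1 is visible as a red base in the sensitive libraries, at 8.78, 8.75 and 6.97, and barely in the resistant ones, at 0.450, 0.485 and 0.225.

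Neither kinase met the rule. CDK4 (ENSG00000135446, chr12:57747727-57756013, reverse strand) measured 71.6, 99.3 and 115 CPM in resistant and 86.5, 98.7 and 141 CPM in sensitive libraries. The groups overlapped in part and replicate 3 was the highest in each. The log2 fold change was −0.19 ± 0.23 (SE, 95% interval −0.71 to 0.32), and 0.04 without sensitive replicate 3. The genes TSPAN31 and MARCHF9 overlap CDK4 on the opposite strand, with mean counts that were 12.4% and 6.43% of those of CDK4, and whether the counting used strand is not given in the sources used here.

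CDK6 (ENSG00000105810, chr7:92604921-92836594, reverse strand), the kinase partner known for its part in blood cell growth, measured 323, 344 and 377 CPM in resistant and 282, 248 and 318 CPM in sensitive libraries. All resistant values lay above all sensitive ones, with resistant replicate 1 and sensitive replicate 3 close together. The means were 348 ± 27.01 and 283 ± 35.0 CPM (SD, n = 3 each), a log2 fold change of 0.30 ± 0.17 (SE, 95% interval −0.08 to 0.69). It was positive in each of 17 alternatives, between 0.19 and 0.47, and met the rule in 1 of them, library totals alone, where the median over all genes was 0.20. Per kilobase, CDK6 made up 39.9 ± 4.15% of the 2 kinases in resistant and 32.2 ± 4.19% in sensitive cells. The share in resistant libraries ran from 36.9% to 44.7% and in sensitive libraries from 28.7% to 36.8%, so the groups lay next to each other without overlapping. With coding length the same shares were 77.4% and 70.9%.

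The mean CPM of each of the 4 inhibitors was lower in resistant cells, although the sign for CDKN2C turned under library totals alone, and 0 of the 4 met the rule with all 6 libraries. CDKN1A (ENSG00000124762, chr6:36676460-36687339, forward strand), which encodes p21, measured 24.1, 25.8 and 26.8 CPM in resistant and 50.3, 61.3 and 19.1 CPM in sensitive libraries. The resistant libraries were alike, whereas sensitive replicate 3 lay below all of them and the other sensitive libraries lay well above. The means were 25.6 ± 1.35 and 43.6 ± 21.9 CPM (SD, n = 3 each), a log2 fold change of −0.77 ± 0.34 (SE, 95% interval −1.53 to −0.01). Without sensitive replicate 3 it was −1.13, and without both libraries numbered 3 it was −1.17, and in both cases the gene met the rule. It also met the rule with no filter on low counts, at −0.78.

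CDKN1B (ENSG00000111276, chr12:12715058-12722371, forward strand), which encodes p27, measured 34.3, 44.1 and 59.6 CPM in resistant and 47.7, 47.7 and 64.1 CPM in sensitive libraries. Replicate 3 was the highest of each group and the groups overlapped. It differed by a log2 fold change of −0.21 ± 0.22 (SE, 95% interval −0.69 to 0.28).

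CDKN2C (ENSG00000123080, chr1:50960745-50974633, forward strand) measured 28.8, 39.8 and 38.4 CPM in resistant and 35.2, 29.2 and 53.4 CPM in sensitive libraries. Sensitive replicate 3 was the highest and the groups overlapped. The log2 fold change was −0.14 ± 0.23 (SE, 95% interval −0.66 to 0.38), 0.14 without sensitive replicate 3 and 0.08 without both libraries numbered 3, and its sign also turned under library totals alone.

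CDKN2D (ENSG00000129355, chr19:10566462-10569059, reverse strand) was the least abundant inhibitor, at 4.35, 5.00 and 6.74 CPM in resistant and 8.21, 8.39 and 4.98 CPM in sensitive libraries. As with CDKN1A, sensitive replicate 3 was low and the other sensitive libraries lay above every resistant one. Its log2 fold change was −0.42 ± 0.28 (SE, 95% interval −1.04 to 0.19), and −0.84 without both libraries numbered 3, where the gene met the rule.

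The sum of the 4 inhibitors per kilobase was 36.5, 45.2 and 52.2 in resistant and 58.0, 61.0 and 54.5 in sensitive libraries. All resistant sums lay below all sensitive ones, with means of 44.7 ± 7.88 and 57.8 ± 3.25 CPM per kilobase (SD, n = 3 each). This gap depends on the TMM factors, which ran from 1.10 in resistant replicate 1 to 0.869 in sensitive replicate 3. The scaling was not varied for these sums or for those of the D cyclins. CDKN1A was 25.7 ± 3.28% of the sum in resistant and 32.7 ± 15.2% in sensitive cells, where sensitive replicate 3 stood at 15.5% against 38.2% and 44.4% in the others. CDKN1B was the largest share in resistant cells, 38.3 ± 4.06%, and took 34.9 ± 8.18% in sensitive cells.

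RB1 (ENSG00000139687, chr13:48303726-48599436, forward strand), the substrate of the cyclin D kinases, measured 47.8, 46.2 and 47.8 CPM in resistant and 38.0, 38.1 and 45.3 CPM in sensitive libraries. The resistant values lay above all sensitive ones, with sensitive replicate 3 close to them. The log2 fold change was 0.22 ± 0.14 (SE, 95% interval −0.09 to 0.54), and it met the rule in 0 of 17 alternatives. LPAR6, a receptor gene inside an intron of RB1 on the opposite strand, was higher, with 205, 222 and 170 counts in resistant and 79, 68 and 50 counts in sensitive libraries (1.56 ± 0.28 on the log2 scale, SE, with adjusted p = 0.00328 from edgeR), and its mean count was 8.02% of that of RB1. RCBTB2, which also overlaps RB1 on the opposite strand, with 9.02% of its mean count, stood at −0.72 and was not called (adjusted p = 0.115 from edgeR).

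Per kilobase of the longest coding transcript, the order of the 10 genes was the same in both groups apart from CCND1 with CDKN2D and CDKN1A with CDKN2C, which changed places. CCND3, CDK4, CCND2, CDK6 and CDKN1B were the 5 most abundant, in that order, in both. The order turns with the length used, and with coding length CDK6 came first in resistant cells, at 356 CPM per kilobase, before CCND2 at 234, CCND3 at 181 and CDK4 at 105. With the longest transcript, CCND3 had 66.1 ± 6.91 CPM per kilobase in resistant and 68.2 ± 3.77 in sensitive cells, and CDK4 45.9 ± 10.6 and 52.4 ± 13.9. CCND2 had 31.3 ± 1.44 in resistant and 30.4 ± 0.765 in sensitive cells, and CDK6 30.0 ± 2.33 and 24.3 ± 3.02. In resistant cells CCND2 and CDK6 differed by less than the larger of their SDs, as did CDKN2C (12.3 ± 2.07) and CDKN1A (11.3 ± 0.597). RB1 followed at 9.87 ± 0.190 in resistant and 8.45 ± 0.875 in sensitive cells. CCND1 was the lowest of the 10 in each resistant library, at 0.485 CPM per kilobase or less with CDKN2D next at 3.06 or more, whereas in each sensitive library it was above CDKN2D. In sensitive cells RB1 and CCND1 also differed by less than the larger SD.

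**Figure D3:**
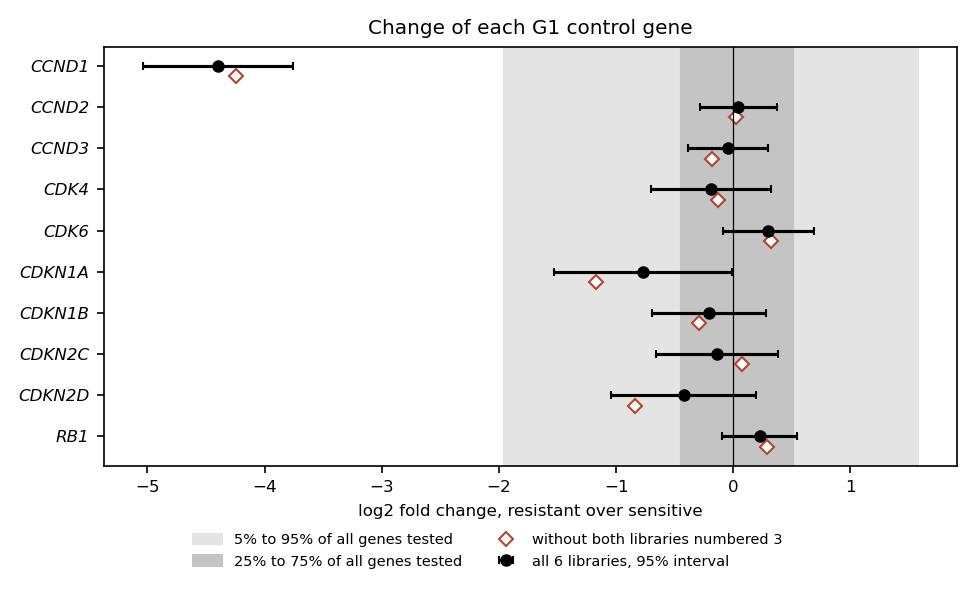
Log2 fold change, resistant over sensitive (horizontal axis), of each gene in all 6 libraries with its 95% interval (black) and without both libraries numbered 3 (open red diamonds). Grey bands hold 25% to 75% and 5% to 95% of all tested genes. CCND1, at −4.40, is the only gene outside the wider band, which ends at −1.95, and the diamonds of CDKN1A and CDKN2D sit at −1.17 and −0.84.

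The other inhibitors and partners of the same step were taken as a further list. CDKN1C, which encodes the third CIP/KIP inhibitor p57 and is imprinted, fell to 4.78 ± 1.43 CPM in resistant cells, against 29.5 ± 7.78 CPM in sensitive cells (SD, n = 3 each), which was 6.17-fold lower or −2.63 ± 0.28 on the log2 scale (SE), with adjusted p = 0.000154 from edgeR. It was called in 17 of 17 alternatives. CDKN2A and CDKN2B had 0 counts in all 6 libraries, which allows up to 0.0830 CPM in a resistant and 0.0902 CPM in a sensitive library (3 counts of the scaled total, counting error only). The RB1 relatives RBL1 and RBL2 were not called, with log2 fold changes of −0.08 and −0.39 (edgeR adjusted p = 0.743 and 0.0929). CDK2 stood at −0.48 (0.0757), CCNE1 at 0.40 (0.290), CCNE2 at −0.28 (0.327) and the phosphatase gene CDKN3 at −0.55 (0.0836). MYC, which promotes D cyclin and CDK4 transcription, stood at −0.47 (0.103). Without resistant replicate 3, CDK2 (−0.67), MYC (−0.68), RBL2 (−0.47), CCNE2 (−0.52) and CDKN3 (−0.76) were called lower, and without both libraries numbered 3 the same genes were called lower, at −0.58, −0.70, −0.40, −0.52 and −0.69. The 2 fits called 3718 of 22486 and 5021 of 21908 tested genes lower, more than the 2741 of 20891 with all 6 libraries.

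Of 20 tested genes of the RB family, E2F and DREAM complex, 3 rose, 0 fell and 17 were not called, with a median log2 fold change of 0.09. That is 15% called, where 9.83% of all tested genes were higher and 13.1% lower, 23% in all. E2F3, an activating E2F, rose to 121 ± 2.46 CPM in resistant cells, against 73.8 ± 14.5 CPM in sensitive cells (0.71 ± 0.17 on the log2 scale, SE, with adjusted p = 0.0140 from edgeR). MYBL1, a MYB relative of B-MYB, rose to 5.06 ± 0.389 CPM, against 2.51 ± 0.323 CPM in sensitive cells (1.01 ± 0.25, adjusted p = 0.0159). DYRK1A, a kinase that starts DREAM assembly and marks cyclin D1 for breakdown, rose to 201 ± 6.17 CPM, against 140 ± 16.5 CPM in sensitive cells (0.52 ± 0.16, adjusted p = 0.0375). Leaving out resistant replicate 2 or sensitive replicate 2 left 0 higher genes and leaving out sensitive replicate 1 left 1. Fewer genes were also higher over all tested genes. They were 1051 of 21621 without resistant replicate 2 and 1179 of 22288 without sensitive replicate 2. Without sensitive replicate 1 they were 1062 of 21958, against 2054 of 20891 with no library left out. DYRK1A also lost its call without resistant replicate 1 (adjusted p = 0.0847) and with length and GC offsets (0.259). Without resistant replicate 3 there was 1 lower gene and without both libraries numbered 3 there were 2. Those fits called 3718 of 22486 and 5021 of 21908 tested genes lower. E2F1, the best known RB1 partner, stood at −0.11 and E2F4 at 0.13.

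Of 32 tested genes that E2F drives for DNA replication, 0 rose, 1 fell and 31 were not called, with a median of −0.22. Over all tested genes 9.83% were higher and 13.1% lower. The gene that fell was TK1, thymidine kinase of S phase, at 84.0 ± 7.87 CPM in resistant and 132 ± 19.99 CPM in sensitive cells (−0.65 ± 0.17, edgeR adjusted p = 0.0185). Of the 16 tested later cyclins, CDK2 and their regulators, 0 rose and 1 fell (6.25% called, 23% over all genes), with a median of −0.22. That gene was CDC25C, a phosphatase of mitotic entry, at 18.5 ± 3.28 and 28.9 ± 2.23 CPM in resistant and sensitive cells (−0.64 ± 0.18, edgeR adjusted p = 0.0262). Both lists depended on resistant replicate 3. In resistant replicates 1, 2 and 3 the median deviation of the replication list from the sensitive mean was −0.42, −0.29 and 0.09, and that of the later cyclins −0.45, −0.36 and 0.08. Without that library 10 replication genes were lower and 1 higher, and 7 of the later cyclins list were lower. Without both libraries numbered 3 the numbers were 16 lower and 2 higher, and 8 lower. Calls over all genes also rose in these fits. They were 3718 lower and 3327 higher of 22486 without resistant replicate 3, and 5021 lower and 4645 higher of 21908 without both. Leaving out resistant replicate 1 or 2 or sensitive replicate 1 left 0 lower genes in both lists. Over all genes those fits called 2148 of 21615, 1677 of 21621 and 1869 of 21958 lower. With no library left out, 2741 of 20891 were lower. Leaving out sensitive replicate 2 left 0 lower replication genes and 1 lower gene of the later cyclins list, which was not CDC25C (adjusted p = 0.0541). Leaving out sensitive replicate 3 gave 2 lower replication genes and 0 lower genes in the later cyclins list. With library totals alone 0 genes were lower in either list. Over all genes, 1913 of 22288 were lower without sensitive replicate 2 and 2724 of 22262 without sensitive replicate 3. With library totals alone, 2118 of 20891 were lower.

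Of 20 tested factors that turn over D cyclins, p21 and p27, 1 rose, 1 fell and 18 were not called (10% called, 23% over all genes), with a median of 0.07. FBXO4, an F-box protein described for cyclin D1, fell to 15.7 ± 2.80 CPM in resistant cells, against 27.1 ± 1.27 CPM in sensitive cells (−0.79 ± 0.17, edgeR adjusted p = 0.00898), and lost the call without resistant replicate 2 (0.0714). GSK3B, the kinase that marks cyclin D1 for export and breakdown, rose to 54.7 ± 10.0 CPM, against 34.6 ± 2.04 CPM in sensitive cells (0.66 ± 0.17, adjusted p = 0.0203), and lost the call without resistant replicate 1 (0.0649) or 2 (0.107) or sensitive replicate 1 (0.0661) or 2 (0.0973). SKP2, which targets p27, stood at 0.26 and was not called. Without sensitive replicate 3 there were 2 higher genes, without resistant replicate 3 there were 3 lower, and without both libraries numbered 3 there were 2 higher and 5 lower. Over all genes, 1833 of 22262 were higher in the first of these fits and 3718 of 22486 lower in the second. In the last, 4645 of 21908 were higher and 5021 lower.

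Of 40 tested transcription regulators of D cyclins and CDK inhibitors, 1 rose, 7 fell and 32 were not called, with a median of 0.09. The 20% called was below the 23% called over all genes. ETS1, an ETS factor known to act on cyclin D1 and p21 promoters, fell to 1.98 ± 0.988 CPM in resistant cells, against 13.2 ± 1.39 CPM in sensitive cells (−2.73 ± 0.33, edgeR adjusted p = 0.000338). GFI1, a repressor of CDKN1A, fell to 1.76 ± 0.418 CPM, against 7.59 ± 1.00 CPM in sensitive cells (−2.11 ± 0.27, adjusted p = 0.000454). LEF1, the WNT pathway factor known to bind the CCND1 promoter, fell to 10.9 ± 0.518 CPM, against 23.9 ± 3.39 CPM in sensitive cells (−1.13 ± 0.17, adjusted p = 0.00120). KLF10, a TGF-beta response factor, fell to 29.9 ± 4.59 CPM, against 93.0 ± 34.7 CPM in sensitive cells (−1.64 ± 0.27, adjusted p = 0.00232). These 4 were called in 17 of 17 alternatives. The gene that rose, named here after its value was seen, was SMAD4, at 75.9 ± 2.81 CPM in resistant and 50.8 ± 7.64 CPM in sensitive cells. Leaving out sensitive replicate 2 or 3 left 0 higher genes, leaving out resistant replicate 2 left 4 lower, leaving out resistant replicate 3 gave 6 higher and 11 lower, and without both libraries numbered 3 there were 10 higher and 13 lower. Over all genes, 1179 of 22288 were higher without sensitive replicate 2 and 1833 of 22262 without sensitive replicate 3. Without resistant replicate 2, 1677 of 21621 were lower. Without resistant replicate 3, 3327 of 22486 were higher and 3718 lower. Without both libraries numbered 3, 4645 of 21908 were higher and 5021 lower. Under library totals alone 6 were higher and under upper quartile factors 3. Of all 20891 tested genes, 3041 were higher under library totals alone and 2502 under upper quartile factors.

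The stretch around CCND1 was described because CCND1 was the gene called. Of 26 annotated genes within 500 kb, 5 were tested, CCND1 included, and 11 had no count in any library. CCND1 and 3 others were called lower and 0 higher, where 13.1% of all tested genes were lower. The lower genes other than CCND1 all lie before it on the chromosome. After it only LTO1 was tested in this window, so the 2 sides cannot be compared. Beyond the window, NADSYN1 after CCND1 was lower (−0.88) and CPT1A before it was higher (2.12). MYEOV, a gene named for overexpression in myeloma, begins 347 kb before the start of CCND1 and measured 2.10, 2.72 and 1.36 CPM in resistant and 29.7, 28.4 and 38.7 CPM in sensitive libraries. Its groups did not overlap and differed by −3.97 ± 0.27 on the log2 scale (SE), with adjusted p = 9.43e-06 from edgeR. SMIM38, which begins 486 kb before, had 17 counts in all resistant and 292 in all sensitive libraries (−4.10 ± 0.56, adjusted p = 0.000706). A lincRNA, ENSG00000260877, 270 kb before, had 45 and 642 counts in resistant and sensitive libraries (−3.85 ± 0.51, adjusted p = 0.000581). SMIM38 and the lincRNA were singled out after their values were seen.

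LTO1, on the far side of CCND1, did not differ beyond the spread of its libraries. It overlaps the end of CCND1 on the opposite strand, begins 12.0 kb after the start of CCND1 and measured 14.8 ± 0.669 CPM in resistant and 15.3 ± 1.42 CPM in sensitive cells (−0.05 ± 0.16, edgeR adjusted p = 0.853). Its counts were 563, 572 and 552 in resistant and 607, 474 and 633 in sensitive libraries, so it held more counts than CCND1 in resistant cells and fewer in sensitive cells. Among the 20 nearest tested protein-coding genes, 10 on each side, 1 was higher and 3 were lower, with a median of −0.11 over 3.57 Mb. With 5 genes on each side the median was 0.0016. Over all tested protein-coding genes, 11.6% were higher and 15.3% lower.

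**Figure D4:**
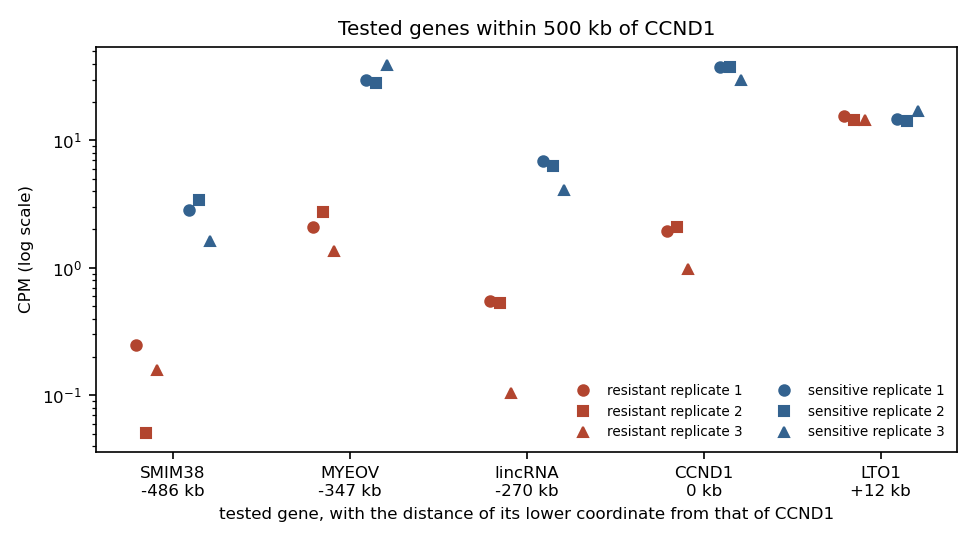
CPM on a log axis of the 5 tested genes within 500 kb of CCND1, ordered by the distance of their lower coordinate from that of CCND1. For each gene the 3 resistant libraries (red) stand left of the 3 sensitive ones (blue). All resistant values lie below all sensitive ones for SMIM38, MYEOV, the lincRNA and CCND1, and the groups overlap for LTO1.

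MYEOV was among the genes whose values over the 6 libraries lay nearest to those of CCND1. Likeness was the Euclidean distance between mean-centred log2 CPM values, over 9406 genes with a mean log2 CPM of at least 3. TAFA2, a secreted protein gene, was nearest at a distance of 0.796, with 12.5 ± 4.24 CPM in resistant and 177 ± 40.5 CPM in sensitive cells. MYEOV followed at 0.861 and S100P, a calcium-binding protein gene, at 0.884, with 2.98 ± 0.202 CPM in resistant and 70.8 ± 24.3 CPM in sensitive cells. This distance holds the gap between the groups, by which CCND1 was called, so it is no separate sign of likeness. The log2 fold changes were −3.83, −3.97 and −4.57, against −4.40 for CCND1. Within the sensitive group, replicate 3 was the lowest for CCND1, at 30.0 CPM, and the highest for MYEOV, at 38.7 CPM.

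With 10 tested protein-coding genes on each side, the medians of the log2 fold change were −0.16 for CCND2 (−0.30 with 5 on each side), −0.01 for CCND3, −0.18 for CDK4, 0.22 for CDK6, 0.00 for CDKN1A, −0.04 for CDKN1B, −0.02 for CDKN2C, 0.19 for CDKN2D and −0.24 for RB1. CDK6, at 0.30, thus lay close to the median of its neighbours, which was 0.16 with 5 genes on each side and 0.33 with 20. RB1, at 0.22, and its neighbours differed in sign, with ITM2B directly before it lower (−0.57, edgeR adjusted p = 0.0265) and LPAR6 within it higher. CDKN1A (−0.77) and CDKN2D (−0.42) lay below the medians of their neighbours with 10 genes on each side. So did CDKN1B (−0.21), CDKN2C (−0.14), CDK4 (−0.19) and CCND3 (−0.04), each less far. CCND2, CDK6 and RB1 lay above theirs. Individual neighbours went far beyond any of the 9 genes, between −4.82 and 4.37 around CDK4.

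**Figure D5:**
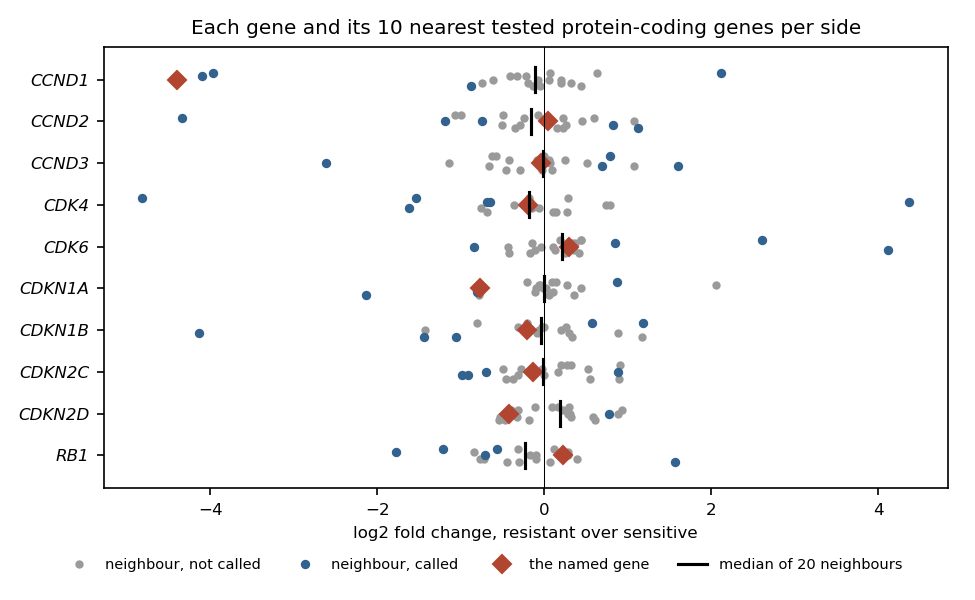
Log2 fold change, resistant over sensitive (horizontal axis), of each of the 10 genes (red diamonds) and of its 20 nearest tested protein-coding genes (grey, not called; blue, called), with their median (black bar). The CCND1 diamond at −4.40 stands with SMIM38 and MYEOV to the left of its other neighbours, whose median with them is −0.11.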

How the data were processed

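The 6 libraries of K562 RNA, 3 resistant and 3 sensitive, were grouped by their titles. The authors deposited 1 table of unnormalised counts, as whole numbers per Ensembl ID. Per the submitters' processing notes, Trimmomatic 0.39, HISAT2 2.2.1, featureCounts and Subread 2.0.3 were used with GRCh38. The kit was stranded, per the labels' protocols. Not given in the sources used here are the annotation release, the strand setting and whether fragments or reads were tallied, so overlapping genes are uncertain. Symbols matched 61369 of the 61487 gene IDs. Positions and transcript lengths, matched for 58312, are from GENCODE on GRCh38 and may differ from the authors' annotation.

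Genes were filtered with filterByExpr, scaled with TMM and tested with the robust two-sided quasi-likelihood test of edgeR 4.0.16 in R 4.3.3. Calls are at a Benjamini-Hochberg adjusted p below 0.05 over all 20891 tested genes, and every adjusted p printed is from this fit unless stated. Each printed SE is the absolute log2 fold change over the square root of F, which is approximate, and intervals are at 95%. CPM uses TMM-scaled totals, so depths of 33007642 to 43006918 counts limit low values to a floor of 3 counts. The fit was checked on simulated counts.

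The 10 genes and the 5 pathway lists (131 entries) were chosen with earlier results of these data known. The genes named are the 10, a fixed list of 11 (1 of them is not reported here), up to 4 called genes per list with the smallest adjusted p, and the 3 profiles nearest to CCND1. Other named genes were chosen after their values were seen.

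The alternatives were DESeq2 size factors, upper quartile factors, unscaled library totals, a minimum of 50 counts in 3 libraries in place of filterByExpr, or no filter, leaving out the 10 most abundant features with all mitochondrial and ribosomal RNA, a replicate block, DESeq2 1.42.0, limma-voom (limma 3.58.1), length and GC offsets (span 0.3), an adjusted p below 0.01, each library left out, both libraries numbered 3 left out, other lengths, and 5 or 20 neighbours per side. The union of exons as length was chosen after seeing the data.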

Additional observations from a re-analysis of the deposited data

How the results depend on the processing

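CCND1 and CDKN1C kept their direction and call in 17 of 17 alternatives. A count of 0 allows up to 0.0902 CPM, which limits CDKN2A and CDKN2B. The cause of the changes below was not tested. Values follow the order of the text, resistant before sensitive. Without both libraries numbered 3, 4645 genes were higher and 5021 lower, and at an adjusted p below 0.01 these were 938 and 1586. Leaving out single libraries gave 1051 to 3327 higher and 1677 to 3718 lower. Of the 10 genes, 1 was higher with library totals alone, 2 were lower with no filter, 3 without both libraries numbered 3, and 1 to 2 with single libraries left out. Over all genes, library totals alone gave 3041 higher and 2118 lower of 20891. With no filter, 2769 of 39268 were higher and 3460 lower. Under the replicate block, 2859 genes were higher and 3582 lower, 2 RB, E2F and DREAM genes, 5 later cyclins, 4 replication genes and 3 turnover factors were lower, and 6 transcription regulators were higher. The block changed no call of the 10 genes and made RBL2, CDK2, MYC and CDKN3 lower. Same-numbered libraries correlated in their deviations at 0.202, 0.0850 and 0.299, and not every library correlated best with its own number. Resistant replicate 3 did, with −0.177 and −0.235 to sensitive replicates 1 and 2. Whether same-numbered libraries share more than a number was not tested. Without both libraries numbered 3, RB, E2F and DREAM genes had 2 lower, later cyclins 8 lower, replication genes 2 higher and 16 lower, turnover factors 2 higher and 5 lower, and transcription regulators 10 higher and 13 lower. With library totals alone, later cyclins had 0 lower, replication genes 1 higher and 0 lower, turnover factors 3 higher and transcription regulators 6 higher. With no filter, later cyclins, replication genes and turnover factors had 2 lower each and transcription regulators 5 higher. Transcription regulators had 3 higher with upper quartile factors, 2 with at least 50 counts, 6 with DESeq2 and 2 with length and GC offsets. Later cyclins had 2 lower with DESeq2 and 0 with those offsets. Over all genes, 2502 of 20891 were higher with upper quartile factors and 1916 of 14247 with at least 50 counts. Of 20891 genes, DESeq2 gave 2642 higher and 3105 lower, and the length and GC offsets gave 2130 higher and 2442 lower. At an adjusted p below 0.01 the higher counts were 0 for RB, E2F and DREAM genes, turnover factors and transcription regulators, and the lower counts were 0 for later cyclins, 0 for replication genes and 4 for transcription regulators. With single libraries left out, RB, E2F and DREAM genes had 0 to 3 higher and 0 to 1 lower, later cyclins 0 to 7 lower, replication genes 0 to 1 higher and 0 to 10 lower, turnover factors 0 to 2 higher and 0 to 3 lower, and transcription regulators 0 to 6 higher and 4 to 11 lower. With the union of exons as length, CCND1 took 0.624% and 11.5% of the D cyclins in resistant and sensitive cells, CCND2 50.7% and 43.8%, CDK6 49.0% and 40.6% of the kinases, and CDKN1A 21.8% of the inhibitors in resistant cells. With coding length, CCND1 took 8.75% in sensitive cells, CCND2 56.2% and 50.1% and CDK6 77.4% and 70.9%. With 5 neighbours per side the medians were 0.0016 for CCND1, −0.30 for CCND2, −0.26 for CCND3, 0.23 for CDKN1B, −0.070 for CDKN2C and 0.26 for CDKN2D. With 20 they were −0.13 for CCND3, 0.33 for CDK6, −0.14 for CDKN1A, 0.031 for CDKN2C, 0.10 for CDKN2D and −0.073 for RB1. The sign changed for CCND3 (0.030 with upper quartile factors, 0.12 with library totals, −0.15 to 0.0099 with single libraries left out, positive without resistant replicate 1), CDK4 (−0.37 to 0.041, positive without sensitive replicate 3), CDKN2C (0.045 with library totals, 0.077 without both libraries numbered 3, −0.34 to 0.14, positive without sensitive replicate 3), RBL1 (0.091 with library totals, 0.024 with offsets) and CCNE1 (−0.032 without both libraries numbered 3).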
